A study of Homo sapiens with 9 samples.

Results

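The Mediator genes were taken as every gene of the screen whose symbol reads MED followed by a number, with or without a final L, which gave 29 of the 19114 targeted genes and 116 guides. HEL cells are an established line from a human erythroleukemia, carry the activating JAK2 mutation of myeloproliferative neoplasms, and expressed Cas9 for this screen. They were infected with the Brunello library, a pool of guide RNAs with about 4 guides per gene, and guide abundance was sequenced at day 0 (1 library), at day 12 with DMSO (4 libraries) and at day 12 with 200 nM ruxolitinib (RUX), an inhibitor of the JAK kinases (4 libraries). All groups thus shared the cell line, Cas9 and the guide pool, and differed in time and drug. The comparison with day 0 asked which knockouts were lost during growth, and the comparison of RUX with DMSO asked whether the loss differed under JAK inhibition.

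Mediator is a large complex that passes signals from transcription factors bound at enhancers and promoters to RNA polymerase II. The head and middle modules contact the polymerase, the tail is the main docking surface for activators, MED14 runs through the complex as its scaffold, and a separable kinase module binds reversibly and can keep the polymerase away. In blood cells Mediator is known as a coactivator of lineage transcription factors, among them GATA1 through MED1.

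Each gene was scored per library by averaging ln((day 12 value + 5)/(day 0 value + 5)) over the guides to it, so that a score of 0 means no change against the non-targeting guides and a negative score means loss of the cells that carried the knockout. With guides under a day 0 value of 30 and genes with fewer than 2 remaining guides left out, 19112 genes were scored, among them all 29 Mediator genes with 113 of their 116 guides. A dependency was a score below −0.5 as the mean of 4 libraries. Guide reads numbered 21983632 at day 0 and between 19631338 and 26611323 at day 12, and a used Mediator guide had a median of 255 reads at day 0 (42 to 1253). DMSO replicate 3 stood apart in noise, with an SD of 0.459 over the non-targeting guides against 0.264 to 0.302 in the other day 12 libraries. Without it, 8 Mediator genes were below −0.5 under DMSO in place of 7, with MED25 added, against 792 of all genes (4.14%).

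The lowest scores belonged to a few subunits spread over the head, middle, tail and kinase module, and the other 21 subunits scored between −0.49 and 0.22. Under DMSO 7 of 29 Mediator genes (24.1%) had a score below −0.5, against 825 of all 19112 genes (4.32%). Under RUX 7 of 29 (24.1%) were below −0.5, against 884 of all genes (4.63%). MED11, MED9, MED19, MED27, MED30 and MED12 were below −0.5 in both conditions, MED10 only under DMSO (−0.59 ± 0.20 against −0.46 ± 0.16 under RUX; mean ± SD, n = 4 here and below) and MED25 only under RUX (−0.74 ± 0.34 against −0.49 ± 0.21 under DMSO). The difference between the conditions passed limma for neither (adjusted p = 0.79 for MED10 and 0.65 for MED25). The median Mediator score was −0.23 under DMSO and −0.28 under RUX, against −0.08 and −0.09 over all genes. A score below 0 was found for 28 Mediator genes under DMSO and 27 under RUX, where the same held for 13089 (68.5%) and 13668 (71.5%) of all genes.

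The test across libraries measured each change against a single day 0 library. By limma with an adjusted p under 0.05, 0 Mediator genes were lower under DMSO, where 68 of all genes were (0.356%), and 3 were lower under RUX, where 104 of all genes were (0.544%). The 3 were MED27, MED30 and MED11. These limma counts depended on how the variance trend was set, as given in the last section. At an unadjusted p under 0.05, limma gave 10 Mediator genes lower under DMSO, against 1493 of all genes (7.81%), and 11 under RUX, against 1584 (8.29%). On reads summed per gene, edgeR and DESeq2 each called MED12 alone under DMSO, against 73 (0.382%) and 116 (0.607%) of all genes. Under RUX each called MED9 and MED12, against 111 (0.581%) and 136 (0.712%) of all genes. Neither called MED27 (adjusted p = 0.30 by edgeR and 0.13 by DESeq2), MED30 (0.64 and 0.43) or MED11 (0.77 and 0.52) under RUX. The DMSO and RUX comparisons share the day 0 library, so an error in that library would enter both.

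**Figure D1:**
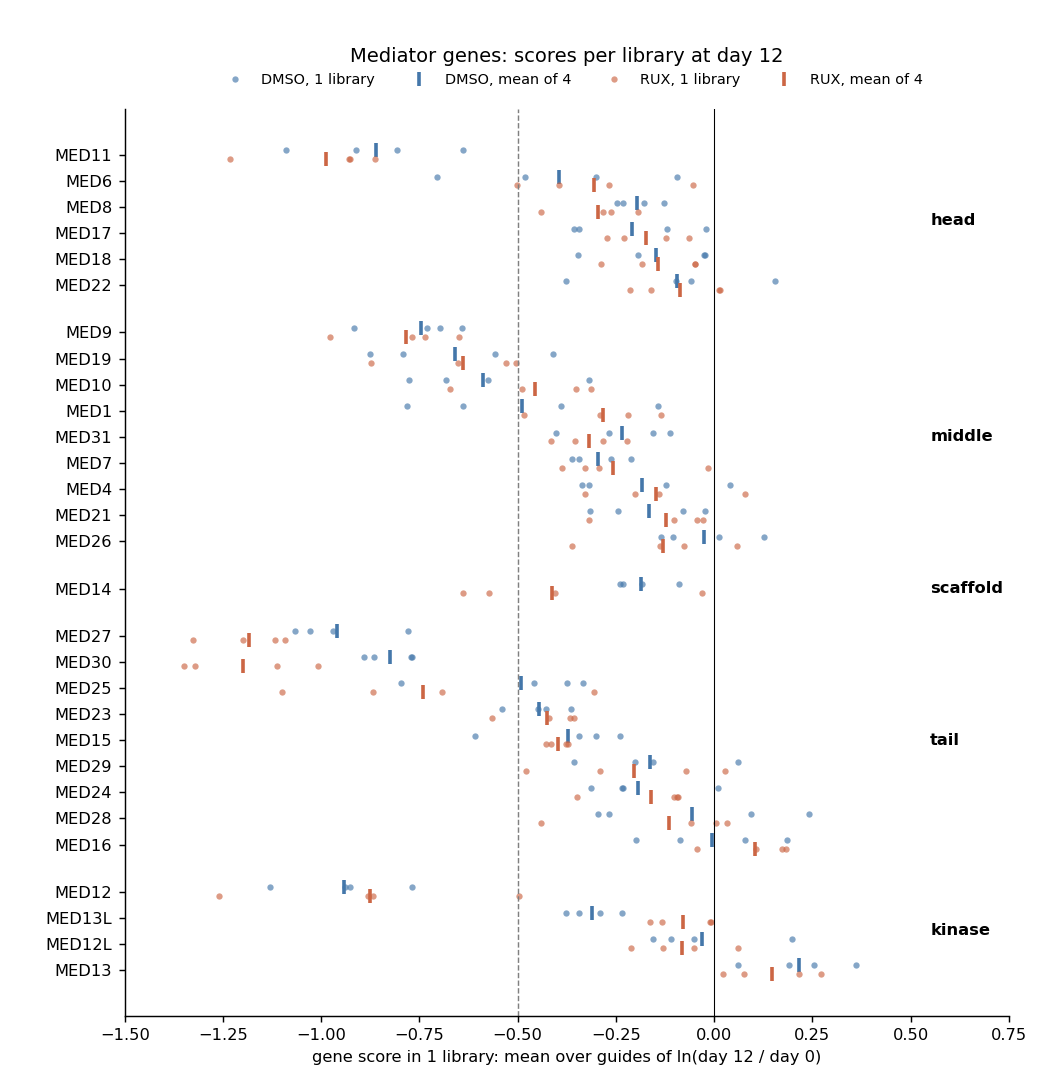
Gene scores of the 29 Mediator genes by module (x axis, natural log of day 12 over day 0, mean over guides), with a dot per library and a bar for the mean of the 4 DMSO or 4 RUX libraries. The dashed line marks −0.5. MED27, MED30, MED11 and MED12 lie lowest in both conditions, each with a mean of −0.82 or lower, and MED13 lies highest, at 0.22 under DMSO and 0.15 under RUX.

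In the head, 1 of 6 scored genes was below −0.5 in each condition, and it was MED11. MED11 is a small head subunit that lies near the contact with the general transcription machinery (chr17:4731428-4733608, GRCh38). Its scores were −0.91, −1.09, −0.81 and −0.64 in DMSO replicates 1 to 4. Under RUX they were −1.23, −0.93, −0.86 and −0.93. All 8 libraries were below −0.5, and the ranges of both conditions overlapped. The mean was −0.86 ± 0.19 under DMSO (limma adjusted p = 0.10) and −0.99 ± 0.17 under RUX (limma adjusted p = 0.0499), so that 42.2% and 37.2% of the day 0 abundance was left, as a geometric mean over guides. The RUX call lay at the threshold and was lost when any 1 of the day 12 libraries other than DMSO replicate 2 was left out. None of the other head genes passed limma, with scores from −0.39 to −0.09 in DMSO libraries and from −0.30 to −0.09 in RUX libraries, as means of 4. They included MED17, around which the head is built (−0.21 ± 0.17 and −0.17 ± 0.10 under DMSO and RUX), and MED6 (−0.39 ± 0.26 and −0.30 ± 0.19). MED20, the remaining head subunit, was not analysed here.

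In the middle module 3 of 9 genes were below −0.5 under DMSO (MED9, MED19, MED10) and 2 under RUX (MED9, MED19), and none passed limma in the main fit. MED9 (chr17:17476994-17493221) had scores of −0.73, −0.92, −0.70 and −0.64 under DMSO. Under RUX its scores were −0.74, −0.65, −0.77 and −0.98. Every library was below −0.5, with means of −0.75 ± 0.12 and −0.78 ± 0.14 that differed by less than the spread between replicates (difference −0.04, 95% confidence interval −0.35 to 0.27). The limma adjusted p was 0.13 under DMSO and 0.092 under RUX, while edgeR and DESeq2 passed MED9 under RUX (adjusted p = 0.028 and 0.016). With the limma variance trend taken against the mean log level, its adjusted p was 0.0024 under DMSO and 9.4e-04 under RUX. That alternative was chosen after seeing the data and passed 220 (1.15%) and 302 (1.58%) of all genes as lower.

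MED19 sits at the hook of the middle module, where Mediator meets the polymerase. Its scores were −0.88, −0.41, −0.56 and −0.79 under DMSO and −0.50, −0.65, −0.53 and −0.87 under RUX. Means were −0.66 ± 0.21 and −0.64 ± 0.17, and 1 DMSO library stayed above −0.5. MED10, which packs against MED14, had scores of −0.68, −0.32, −0.78 and −0.57 under DMSO and −0.31, −0.67, −0.35 and −0.49 under RUX. The groups overlapped, with 1 DMSO library above −0.5 and 1 RUX library below it. MED1, the subunit bound by nuclear receptors and GATA1, had a mean of −0.49 ± 0.28 under DMSO and −0.28 ± 0.15 under RUX, and its DMSO libraries ranged from −0.78 to −0.14. The mean of MED1 under DMSO was thus within its own spread of the dependency threshold. The remaining middle genes, MED31, MED7, MED4, MED21 and MED26, ran from −0.32 to −0.03 over both conditions. MED26, which links Mediator to elongation factors, was the highest of them under DMSO (−0.03 ± 0.12).

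MED14, the scaffold, had a mean of −0.19 ± 0.07 under DMSO and −0.41 ± 0.27 under RUX, with 2 of its 4 guides below −0.5 under DMSO and 3 under RUX. Its RUX libraries ranged from −0.64 to −0.03. Without RUX replicate 4 the RUX mean was −0.54. Its guide sg_24389 started from 42 reads at day 0 and was at 0.67 under DMSO and 0.57 under RUX. Without sg_24389, the guide farthest from the others, the score of MED14 was −0.47 under DMSO and −0.74 under RUX.

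The tail held the 2 lowest Mediator genes under RUX. MED27 (chr9:131852928-132079867) is a subunit at the junction of tail and head. Its scores were −0.78, −1.03, −1.07 and −0.97 under DMSO. Under RUX they were −1.09, −1.12, −1.33 and −1.20. All RUX libraries were below all DMSO libraries. The mean was −0.96 ± 0.13 under DMSO (rank 122 of 19112 from the lowest, limma adjusted p = 0.052) and −1.18 ± 0.11 under RUX (rank 65, limma adjusted p = 0.012), which left 38.3% and 30.6% of the day 0 abundance.

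MED30, another subunit at the same junction, lies on chromosome 8. Under DMSO its scores were −0.87, −0.89, −0.77 and −0.77. Under RUX they were −1.32, −1.35, −1.01 and −1.11. Again all RUX libraries lay below all DMSO libraries. The mean was −0.82 ± 0.06 under DMSO (rank 212, limma adjusted p = 0.10) and −1.20 ± 0.16 under RUX (rank 61, limma adjusted p = 0.012).

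MED25 carries a domain that activators bind. Its scores were −0.46, −0.33, −0.37 and −0.80 under DMSO and −0.69, −0.31, −0.87 and −1.10 under RUX, so that both conditions overlapped. MED23 and MED15, docking sites of signal-dependent activators and of SREBP factors, scored −0.44 ± 0.07 and −0.37 ± 0.16 under DMSO and −0.43 ± 0.10 and −0.40 ± 0.03 under RUX. MED16 was at −0.0049 ± 0.17 and 0.10 ± 0.10, and MED24, MED28 and MED29 were between −0.20 and −0.06 over both conditions. The place of MED27, MED28, MED29 and MED30 differs between descriptions of the complex. Counted with the head, they leave 0 of 5 tail genes below −0.5 under DMSO and 1 of 5 (MED25) under RUX, and bring the head to 3 of 10 in each condition.

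In the kinase module 1 of 4 genes, MED12, was below −0.5 in both conditions, and its paralog was not. MED12 (chrX:71118543-71144103) activates the CDK8 kinase through cyclin C. Its scores were −0.93, −0.94, −0.77 and −1.13 under DMSO. Under RUX they were −0.50, −1.26, −0.88 and −0.87, with RUX replicate 1 just above −0.5. The means were −0.94 ± 0.15 and −0.88 ± 0.31 (limma adjusted p = 0.11 and 0.14), and the score stayed below −0.5 under all 23 processing settings tried. On reads summed per gene MED12 passed in both conditions by edgeR (adjusted p = 0.018 under DMSO and 0.027 under RUX) and by DESeq2 (5.5e-04 and 0.0010). With the limma trend taken against the mean log level, chosen after seeing the data, MED12 had adjusted p = 0.030 and 0.041. Its paralog MED12L scored −0.03 ± 0.16 and −0.08 ± 0.12.

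MED13 links the kinase module to the core complex, and MED13L is its paralog. MED13 had the highest score of the Mediator genes in both conditions, 0.22 ± 0.13 and 0.15 ± 0.12, neither of which passed limma (adjusted p = 0.75 and 0.83). Of the partners outside the MED names, cyclin C (CCNC) scored −0.43 ± 0.23 under DMSO and −0.48 ± 0.18 under RUX, and CDK19, a paralog of CDK8, −0.23 ± 0.16 and −0.08 ± 0.11. CDK8 was not analysed here.

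Between RUX and DMSO, 0 of all 19112 genes (0%) passed limma with an adjusted p under 0.05, and so 0 Mediator genes did. At an unadjusted p under 0.05, limma gave 1018 genes (5.33%) lower and 691 (3.62%) higher under RUX, with MED30 lower and MED13L higher among the Mediator genes. edgeR called 4 genes lower and 2 higher and DESeq2 25 lower and 6 higher, none of them a Mediator gene. Of the 29 differences 14 were negative and 15 positive, with a median of 0.00.

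The 4 RUX libraries lay entirely below the 4 DMSO libraries for 2 Mediator genes, MED27 and MED30, and for 571 of all genes (2.99%). They lay entirely above for 1, MED13L, and for 374 of all genes (1.96%). MED30 had the largest difference of the 29, −0.37 (95% confidence interval −0.70 to −0.04, limma adjusted p = 0.47). All intervals given use 6 residual degrees of freedom, fewer than the limma p-values, and so are wider than those of the limma test. An exact two-sided permutation test gave p = 0.029 for MED30, MED27 and MED13L alike. That is the smallest p that 4 against 4 libraries can give, and it restates the lack of overlap. For MED27 the difference was −0.22 (−0.55 to 0.11; limma adjusted p = 0.64).

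MED13L (chr12:115957905-116277693) had scores of −0.29, −0.38, −0.23 and −0.34 under DMSO. Under RUX they were −0.01, −0.13, −0.16 and −0.01. The mean was −0.31 ± 0.06 under DMSO and −0.08 ± 0.08 under RUX. The difference of 0.23 (95% confidence interval 0.00 to 0.46) did not pass limma (adjusted p = 0.51). Its guides sg_32663, sg_32665, sg_32664 and sg_32666 were at −0.86, −0.29, −0.12 and 0.02 under DMSO and at −0.35, −0.28, 0.20 and 0.11 under RUX. The largest shift was thus that of sg_32663, the lowest of them under DMSO. The intervals of all Mediator genes other than MED30 and MED13L included 0, and the widest of these, that of MED25, ran from −0.63 to 0.13.

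**Figure D2:**
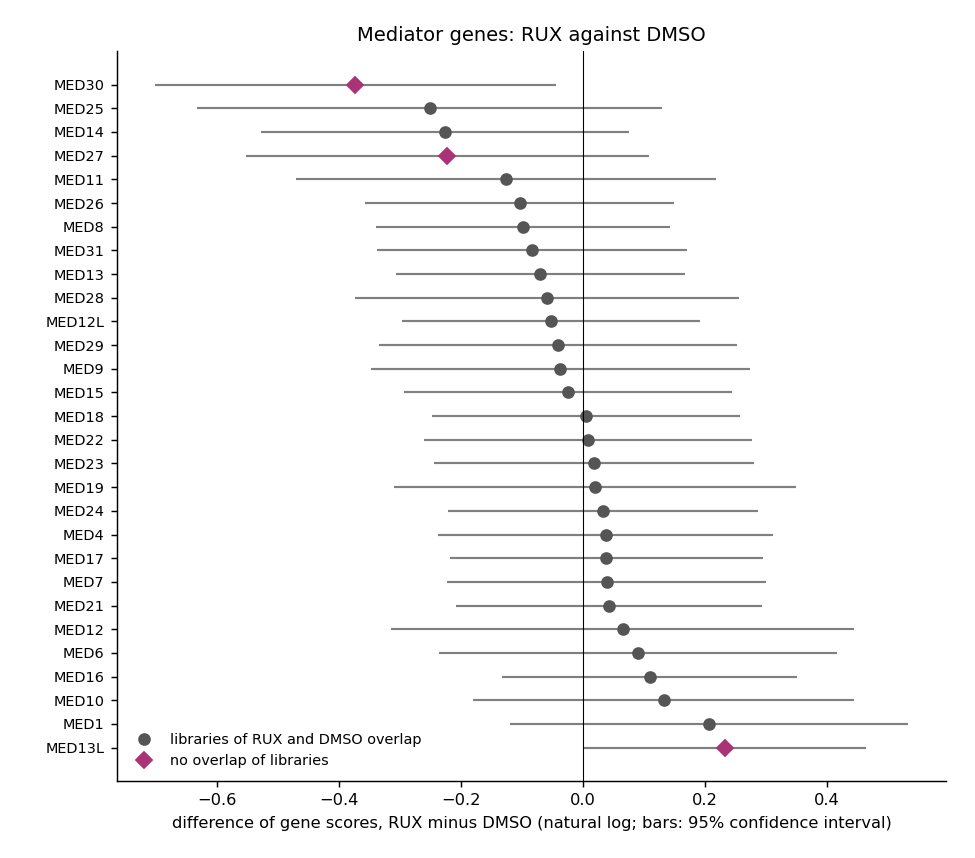
Difference of the gene score between RUX and DMSO (x axis, natural log) for the 29 Mediator genes, with 95% confidence intervals as bars (limma standard error, 6 residual degrees of freedom). Diamonds mark MED30, MED27 and MED13L, whose 4 RUX and 4 DMSO libraries do not overlap. The interval includes 0 for every gene but MED30 (−0.37) and MED13L (0.23).

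Single guides show how many knockouts stand behind each score. Below −0.5 were 34 of the 113 used Mediator guides under DMSO (30.1%) and 35 under RUX (31.0%), against 11.8% of all targeting guides in each condition. Of 990 non-targeting guides with a sufficient day 0 value, 3.03% were below −0.5 under DMSO and 0.808% under RUX. At least 3 guides below −0.5 were found for 4 Mediator genes under DMSO and 5 under RUX, against 348 (1.82%) and 353 (1.85%) of all genes. No guide below −0.5 in either condition was found for 5 Mediator genes, against 9946 of all genes (52%). Guides to a gene differed widely, by 0.35 to 2.85 under RUX with a median range of 0.70. They are not replicates of each other, and the guides of 1 gene target the same gene.

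For MED27 the guide sg_24839 had the lowest score. Its normalized value was 118 at day 0, and at day 12 it was 15.8, 0.964, 5.63 and 0 under DMSO and 1.01, 4.63, 4.06 and 1.13 under RUX. The guides sg_24837 and sg_24838 were at −0.71 and −0.65 under DMSO and at −1.25 and −0.69 under RUX. The fourth guide, sg_24840, was not lost, at 0.15 and 0.03. Without sg_24839, the guide farthest from the others, the score of MED27 was −0.40 under DMSO and −0.64 under RUX.

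MED11 and MED12 showed the same mixture of lost and unaffected guides. In MED11 sg_72220 was at −1.87 under DMSO and −2.13 under RUX and sg_72218 at −1.11 under RUX, whereas sg_72217 was at 0.29 and 0.28. In MED12 sg_26593 was at −1.63 and −1.49, sg_26594 at −1.05 and −1.32, and sg_26596 at 0.10 and 0.07. The fourth MED12 guide, sg_26595, started from 51 reads and varied from 0.926 to 63.6 in normalized value over the RUX libraries, the highest being RUX replicate 1. MED9 had its guides at −1.56, −1.15, −0.53 and 0.26 under DMSO and at −1.33, −1.04, −0.73 and −0.04 under RUX. MED25 was the gene with all 4 guides below −0.5 under RUX as means of the libraries, from −0.95 to −0.60, where 2 were under DMSO. Of these, sg_51983 started from 67 reads and ran from −1.42 to 0.68 over the RUX libraries. Its guide sg_51986 ran from −1.51 to 0.17. MED10 rested mainly on 1 guide, sg_53205 at −1.66 and −1.37. MED19 had 2 guides below −0.5 in both conditions, sg_65316 at −1.48 and −1.76 and sg_65314 at −0.68 and −0.58. The latter started from 53 reads.

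**Figure D3:**
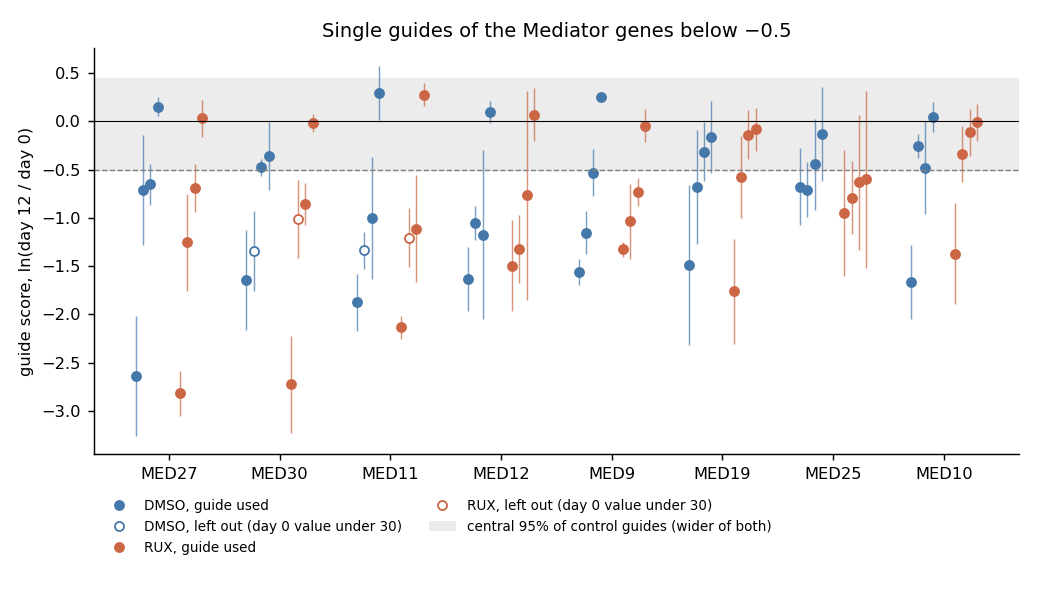
Scores of the single guides (y axis, natural log of day 12 over day 0; mean of 4 libraries, bars show the SD) for the 8 Mediator genes below −0.5 in either condition. Grey marks the central 95% of the non-targeting guides under DMSO, from −0.52 to 0.45, the wider of both conditions (−0.41 to 0.45 under RUX), and open circles the guides left out for a day 0 value under 30. MED27, MED11, MED12, MED9 and MED10 each hold a guide above −0.1 beside a guide below −1 in both conditions.

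The difference of MED30 between the conditions came from guides that did not move together. sg_55449 had a normalized value of 116 at day 0, then 8.42, 18.3, 44.1 and 19.2 under DMSO and 2.02, 0, 12.2 and 2.27 under RUX. sg_55448 started at 186 and had 137, 111, 118 and 124 under DMSO and 75.8, 81.5, 66.9 and 113 under RUX. sg_55447 started at 184 and had 200, 130, 84.4 and 155 under DMSO and 171, 204, 207 and 210 under RUX. For the first and the second of these guides, 3 of the 4 RUX libraries lay below all DMSO libraries, and for the third, 3 lay above them all. Their mean scores went from −1.64 to −2.72, from −0.47 to −0.86 and from −0.36 to −0.01. The fourth guide, sg_55450, was left out because it had 23 reads at day 0, and it went from −1.35 to −1.01. With this guide counted the MED30 difference was −0.20, with its most deviant guide removed −0.02, and on summed reads 0.016 by edgeR and 0.015 by DESeq2, so that its size and sign depended on the processing.

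**Figure D4:**
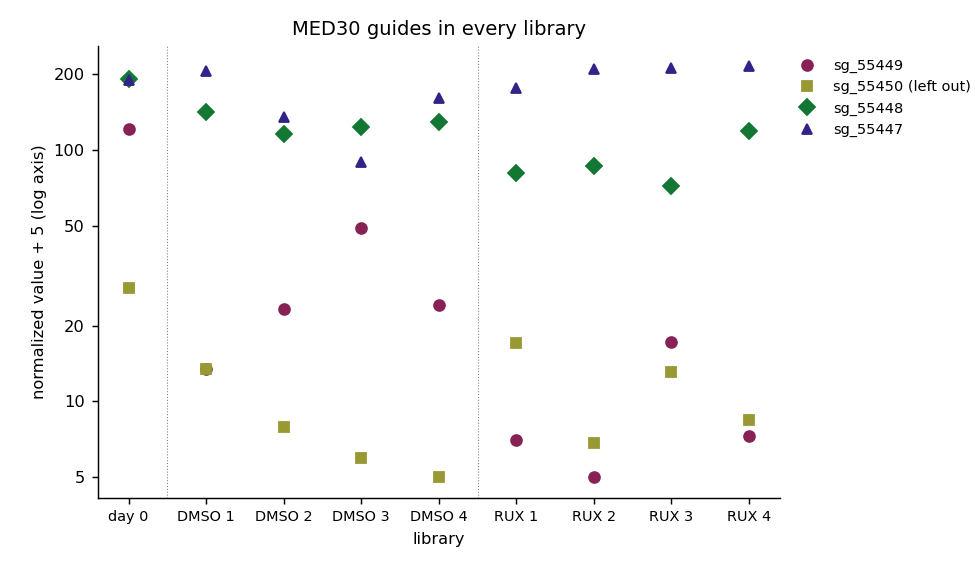
Normalized value plus 5 (log axis) of the 4 MED30 guides in each of the 9 libraries. sg_55449 went from 116 at day 0 to 44.1 or less in every day 12 library, sg_55447 stayed between 84.4 and 210, and sg_55450 started from 23 reads and was left out of the score.

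The 8 Mediator genes below −0.5 in either condition lie on 7 chromosomes, and 6 of them have a coding sequence under 1000 nucleotides, as do 10 of the other 21. Median coding length was 633 nucleotides in the 8 (351 to 6540) and 1800 in the others (393 to 6666). Copy number was not corrected for, and its part in the scores was not tested. The median score of the 20 nearest scored genes ran from −0.19 to 0.01 under DMSO and from −0.17 to −0.05 under RUX around these 8 genes, with MED12 at the lower end (−0.19 and −0.17) and MED27 at −0.02 and −0.06. With these medians subtracted, 7 Mediator genes under DMSO and 6 under RUX were below −0.5, against 527 (2.78%) and 516 (2.73%) of the 18931 genes that could be placed. Then 0 Mediator genes passed limma, where 20 and 11 of all genes did.

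Scores in a similar range were found in other parts of the transcription machinery. Of 12 genes of RNA polymerase II, the enzyme that Mediator acts on, 5 were below −0.5 in each condition, with medians of −0.48 under DMSO and −0.39 under RUX. POLR2L was the lowest, at −1.14 ± 0.19 and −1.38 ± 0.25, and passed limma under RUX (adjusted p = 0.013). Of 13 genes of pause release and elongation, 3 under DMSO and 4 under RUX were below −0.5, with medians of −0.35 and −0.23. The lowest was HEXIM1, an inhibitor of the elongation kinase P-TEFb, at −1.32 ± 0.18 and −1.41 ± 0.32, which passed limma in both conditions (adjusted p = 0.039 and 0.018). Of 18 general transcription factor genes, 0 were below −0.5 under DMSO and 1, CCNH, under RUX (−0.61 ± 0.25), with medians of −0.30 and −0.28. The highest scores of the 3 lists under DMSO were −0.05 (POLR2K), 0.42 (CDK9) and 0.27 (GTF2H4). Under RUX these genes were at 0.01, 0.00 and 0.26. The Mediator median of −0.23 under DMSO lay above those of all 3 lists. Under RUX, at −0.28, it lay above that of the polymerase list, below that of pause release and elongation, and level with that of the general factors.

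**Figure D5:**
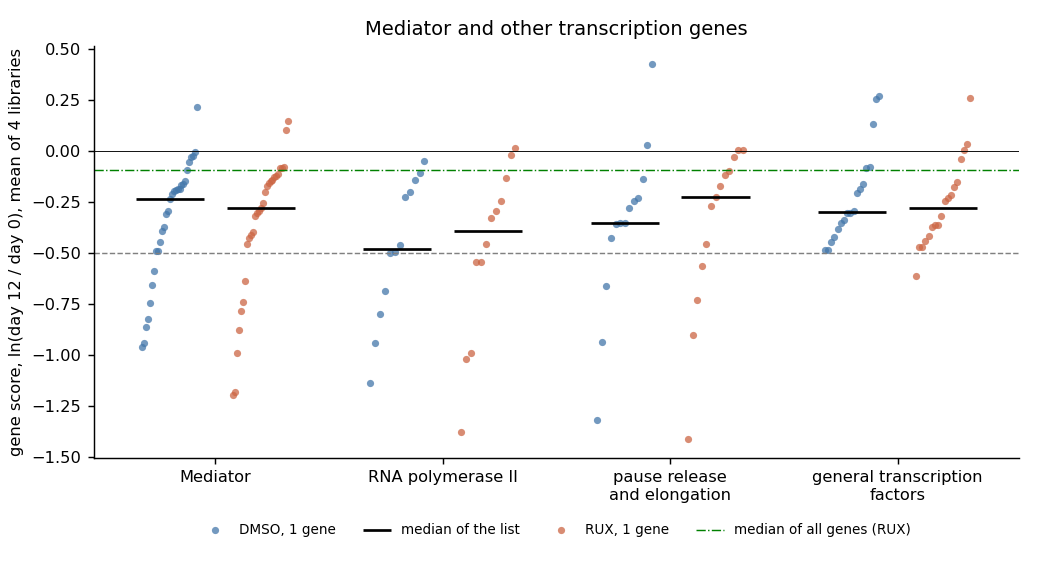
Gene scores (y axis, natural log of day 12 over day 0, mean of 4 libraries) for 29 Mediator, 12 RNA polymerase II, 13 pause release and elongation and 18 general transcription factor genes, with a dot per gene and black bars for the list medians. The lowest genes are HEXIM1 and POLR2L, and every Mediator gene lies above both of them in each condition.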

How the data were processed

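The authors counted guide reads with MAGeCK, and the deposited values are a normalized signal per guide, not counts. Each equals whole reads times 1 factor per library (100% of values within 0.001 of a whole read). The build hg38 and featureCounts 2.0.1 are also named, without a role, in the submitters' processing notes. The paper's methods name both for its RNA sequencing and only MAGeCK for the guide counts. Beta scores and copy number correction of the study were not used here. Libraries were rescaled by the median ratio over non-targeting guides, and scores were computed as given in the text with a pseudocount of 5. limma 3.58.1 in R 4.3.3 fitted the 3 conditions together with a mean-variance trend and without a replicate block. The trend was taken against the mean score of a gene over the libraries, not against its mean abundance. Adjustment of p was by Benjamini-Hochberg over 19112 genes. The methods state treatment in quadruplicate, and neither they nor the labels say whether the replicates were transduced separately, so p-values measure the spread between these libraries, which may be partly technical. edgeR 4.0.16 and DESeq2 1.42.0 were run on recovered reads summed per gene. The step was tested on simulated data. Positions are from GENCODE 44. Scores by library and by guide are given for members below −0.5 or without overlap between RUX and DMSO. Members, gene lists, tests and alternatives were chosen with earlier results of these data known. Guide sequences were not used here.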

Additional observations from a re-analysis of the deposited data

Results flagged for a closer look

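MED24, a tail subunit, had a score of −0.35 in RUX replicate 4, while its other 3 RUX libraries lay between −0.10 and −0.09, a gap larger than Dixon's 95% limit for 4 values. It was the only one of 58 groups of 4 libraries (29 genes in both conditions) past that limit, where chance gives about 1 in 20, or 2.9.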

How the results depend on the processing

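The counts of Mediator genes below −0.5 were 7 under DMSO and 7 under RUX, and rescaling the libraries (all guides, deposited values, totals) left both at 7. Over all genes, rescaling gave 610 to 736 (3.19% to 3.85%) under DMSO and 616 to 648 (3.22% to 3.39%) under RUX. On reads summed per gene, which weight abundant guides, edgeR and DESeq2 each gave 2 under DMSO and 4 under RUX. Over all genes edgeR gave 349 (1.83%) and 352 (1.84%), and DESeq2 355 (1.86%) and 363 (1.9%). A threshold of −1 gave 0 and 2 Mediator genes, with no count over all genes taken. Leaving out 1 library gave 7 to 9 under DMSO, against 792 to 934 of all genes (4.14% to 4.89%). Under RUX it gave 7 to 8, against 880 to 919 of all genes (4.6% to 4.81%). MED25 under DMSO went to −0.50, −0.54 and −0.53 without DMSO replicates 1, 2 and 3. MED1 under DMSO went to −0.60 and −0.52 without DMSO replicates 2 and 4. MED10 and MED14 under RUX went to −0.50 and −0.54 without RUX replicates 1 and 4. The number of Mediator genes passing as lower depended more on the settings. Under DMSO it went from 0 (68 of all genes) to 5 with a pseudocount of 20 (216 of all genes), 1 without the day 0 filter (84), 5 without the variance trend (278), 1 by edgeR (73) and by DESeq2 (116), and 4 with the trend taken against the mean log level (220), an alternative chosen after seeing the data. Under RUX it went from 3 (104 of all genes) to 0 with a pseudocount of 1 (6), the median over guides (0), the farthest guide left out (3) or neighbouring genes subtracted (11), and to 5 with a pseudocount of 20 (267), no trend (329) or the level trend (302). Without single libraries it was 0 under DMSO (29 to 66 of all genes) and 2 to 3 under RUX (65 to 106 of all genes). The cause was not tested. Under RUX, MED27 and MED30 each passed in 17 of 23 settings and MED11 in 5. By edgeR (111 of all genes) and DESeq2 (136), MED9 and MED12 passed under RUX, and MED27, MED30 and MED11 did not. The MED30 difference turned from −0.37 to 0.016 by edgeR and 0.015 by DESeq2. No Mediator gene passed between RUX and DMSO in any setting. Counting MED27 to MED30 with the head gave 3 head genes below −0.5 in each condition, and 0 (DMSO) and 1 (RUX) tail genes. Same-numbered libraries did not deviate together (correlations −0.13 to 0.03). With the replicate block 0 Mediator genes passed as lower under DMSO (31 of all genes) and 2 under RUX (67 of all genes). Low read counts limit single guides, and MED14 had no score with a day 0 value of at least 100.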
